A study of Mus musculus with 2 samples.

Results

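The results describe 10 genes listed under the fusion, division and removal of mitochondria, in gastrocnemius muscle, a calf muscle, of mice. The genes were taken by name. They are the fusion GTPases Mfn1, Mfn2 and Opa1, and the fission GTPase Dnm1l with the outer membrane proteins Mff and Fis1. The outer membrane mitophagy receptors are Bnip3, Bnip3l and Fundc1, and Fundc2, a paralogue of Fundc1, is grouped with them. The rule uses gene names only, with no threshold on a value. All 10 had reads in both libraries, out of 14451 annotated endogenous genes with reads in either. The study comprised 2 long-read RNA libraries, biological replicates 1 and 2 of a single group. The mice were untreated as far as the labels say: female B6CASTF1/J animals, an F1 hybrid strain, aged 18 to 20 months, with 2 µg of total RNA in each library. The labels tie both libraries to 1 donor record and the same pair of identifiers and do not say how many animals each holds, so a difference between the libraries may be technical, and none of the comparisons is between conditions.

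Mitochondria in muscle fibres continually fuse and divide. Mfn1 and Mfn2 are dynamin-related GTPases that tether and fuse the outer membranes, and Opa1 fuses the inner membranes and shapes the cristae. Dnm1l, also called Drp1, is recruited from the cytosol by outer membrane adaptors such as Mff, and constricts the organelle. Mitophagy, the removal of mitochondria by autophagy, uses receptors such as Bnip3, Bnip3l and Fundc1 that sit in the outer membrane and bind LC3-family proteins of the forming autophagosome.

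Sequences are shown for the 8 coding exons that were present in some reads of Opa1, Dnm1l or Mff and absent from others, since these exons, rather than the choice of start site, set apart the transcripts of the 3 genes. They were read from GENCODE M21 transcripts (mm10) and run 5′ to 3′ on the strand of the gene. Capitals mark the exon, and lower case marks the 15 bases of the neighbouring exons on each side in the named annotated transcript. Each length is a multiple of 3, so that an exon can come and go without a shift of the reading frame. The Opa1 exons, at chr16:29588823-29588876 and chr16:29597586-29597696, plus strand, encode stretches in the N-terminal part of the protein. The Dnm1l exons lie on the minus strand. The first, at chr16:16342697-16342735, encodes an insert in the GTPase domain, and the others, at chr16:16318764-16318841 and chr16:16318445-16318477, encode inserts in the variable domain. The Mff exons are at chr1:82737013-82737087, chr1:82741818-82741976 and chr1:82745524-82745556, plus strand.
Opa1, 54 nt, exon 5 of Opa1-201: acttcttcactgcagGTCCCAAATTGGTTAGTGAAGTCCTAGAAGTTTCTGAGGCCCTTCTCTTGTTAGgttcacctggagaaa
Opa1, 111 nt, exon 6 of Opa1-207: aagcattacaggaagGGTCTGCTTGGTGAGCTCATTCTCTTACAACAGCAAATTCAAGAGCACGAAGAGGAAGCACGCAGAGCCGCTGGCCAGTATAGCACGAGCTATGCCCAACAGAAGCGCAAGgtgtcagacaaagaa
Dnm1l, 39 nt, exon 3 of Dnm1l-202: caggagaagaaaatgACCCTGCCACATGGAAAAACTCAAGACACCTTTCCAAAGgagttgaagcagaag
Dnm1l, 78 nt, exon 15 of Dnm1l-203: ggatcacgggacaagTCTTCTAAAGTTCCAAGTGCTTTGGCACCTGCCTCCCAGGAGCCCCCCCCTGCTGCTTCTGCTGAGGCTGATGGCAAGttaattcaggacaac
Dnm1l, 33 nt, exon 16 of Dnm1l-203: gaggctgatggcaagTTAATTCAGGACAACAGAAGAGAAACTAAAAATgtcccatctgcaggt
Mff, 75 nt, exon 6 of Mff-211: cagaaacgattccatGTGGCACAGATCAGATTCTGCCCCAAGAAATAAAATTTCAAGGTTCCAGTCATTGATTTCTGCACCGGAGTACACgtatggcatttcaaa
Mff, 159 nt, exon 6 of Mff-202: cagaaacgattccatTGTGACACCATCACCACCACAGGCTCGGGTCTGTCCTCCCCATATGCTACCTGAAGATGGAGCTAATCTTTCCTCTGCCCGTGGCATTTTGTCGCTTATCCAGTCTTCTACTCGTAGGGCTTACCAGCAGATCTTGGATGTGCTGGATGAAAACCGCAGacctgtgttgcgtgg
Mff, 33 nt, exon 4 of Mff-207: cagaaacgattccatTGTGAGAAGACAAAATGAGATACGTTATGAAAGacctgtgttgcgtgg

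Replicate 1 held 1117891 reads of annotated endogenous genes and replicate 2 held 975696, with a median of 10 and 9 reads per detected gene. Defining genes of muscle fibres (Acta1, Ckm, Myh4, Ttn, Des and Ryr1) summed to 144936 CPM (reads per 1000000 reads of annotated endogenous genes) in replicate 1 and 142341 CPM in replicate 2. The libraries were not alike in slow-fibre transcripts: 8 slow-fibre markers summed to 771 CPM in replicate 1 and 5481 CPM in replicate 2, and each of the 8 was called as higher in replicate 2, 6 of them also with the scatter between the libraries added. The 8 fast-fibre markers summed to 236757 CPM in replicate 1 and 272399 CPM in replicate 2, with 5 called as higher in replicate 1 and 3, among them Myh4 and Atp2a1, as higher in replicate 2. Of 6 fibroblast markers, which summed to 337 CPM and 468 CPM, the collagen genes Col1a1, Col1a2 and Col3a1 were called as higher in replicate 2 and Dcn as higher in replicate 1. Of 4 mural markers (140 CPM and 236 CPM) 2 were called, both higher in replicate 2, and of 3 tenocyte markers tested (140 CPM and 64.6 CPM over 4) 1 was called, higher in replicate 1. Markers of endothelium summed to 70.7 CPM in replicate 1 and 52.3 CPM in replicate 2, of macrophages to 47.4 CPM and 18.4 CPM, and of red cells to 225 CPM and 134 CPM. No marker of endothelium or red cells was called. Of 2 macrophage markers tested Lyz2 was called, higher in replicate 1 (38.5 CPM against 7.17 CPM in replicate 2). Lyz2 held most of the macrophage sum of replicate 1. Of 3 Schwann cell markers tested Mbp was called, higher in replicate 1 (41.1 CPM against 11.3 CPM). The libraries also differed by transcript length. Genes whose most-read annotated transcript was over 4000 nt had a median log2 ratio, replicate 1 over replicate 2, of -0.31, against 0.35 for genes up to 1000 nt. The part of either difference in the results that follow was not tested, and in bulk tissue fewer cells of a type cannot be told apart from less RNA per cell.

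Mfn2 was the most abundant of the 10 genes and the one with the largest fold between the libraries. It held 632 reads in replicate 1 and 1250 reads in replicate 2, or 565 CPM and 1281 CPM (mean 923 ± 506, SD, n = 2). Each long read was counted once whatever its length, so these levels were not divided by length, although long molecules are captured less readily. Whether several reads came from the same molecule was not tested. The libraries stood apart by more than counting error, and Mfn2 was 2.45-fold higher in replicate 2 (95% interval 2.23 to 2.70, adjusted p = 4.51e-78, 2-sided exact binomial test on TMM-scaled counts, adjusted by Benjamini-Hochberg across 8394 genes). Its mean level ranked 74 of all genes, and its gene lies at chr4:147873599-147904704.

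Opa1, the inner membrane fusion GTPase, was the only other gene of the 10 that was called. It held 84 reads in replicate 1 and 142 reads in replicate 2, or 75.1 CPM and 146 CPM (mean 110 ± 49.8, SD, n = 2), and was 2.10-fold higher in replicate 2 (95% interval 1.59 to 2.78, adjusted p = 1.63e-06 in the same exact test). Mfn1, the second outer membrane fusion GTPase, held 196 reads in replicate 1 and 179 reads in replicate 2, 175 CPM and 183 CPM, and passed no threshold (fold 0.883, replicate 1 over replicate 2, 95% interval 0.717 to 1.09). Mfn2 made up 76.3% of the Mfn1 and Mfn2 reads in replicate 1 (Wilson 95% interval 73.3 to 79.1) and 87.5% in replicate 2 (85.7 to 89.1). In both libraries Mfn2 was the main mitofusin transcript.

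Of the 10 genes, none was called as higher in replicate 1, 2 as higher in replicate 2, and 8 were not called. Among all 8394 genes tested, 11.7% were called: in 4.61% replicate 1 was the higher library and in 7.06% replicate 2 was, so that 2 of 10 is read against that background and not as a property of these genes. Scaled by total reads, as CPM are, every log2 ratio moved by 0.11, and 586 genes were called with replicate 1 higher and 452 with replicate 2 higher, in place of 387 and 593. The slow-fibre markers, at 771 CPM in replicate 1 and 5481 CPM in replicate 2, were higher in the same library as Mfn2 and Opa1, and their part in these calls was not tested. The test knows counting error only. With the scatter between the libraries added as a common dispersion in edgeR's exact test, 0.286% of all genes were called (0.0953% with replicate 1 higher and 0.191% with replicate 2 higher) and none of the 10 was. The dispersion was estimated over the tested genes from these same libraries taken as a single group, so that test is no independent check. In that test Mfn2 alone was at an unadjusted p under 0.05, at 0.0139 (adjusted p = 0.946). By the exact binomial test 3 of the 10 were under it: Mfn2, Opa1 and Dnm1l. The median log2 ratio was -0.21 over the 10 genes and -0.0031 over all genes tested.

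**Figure D1:**
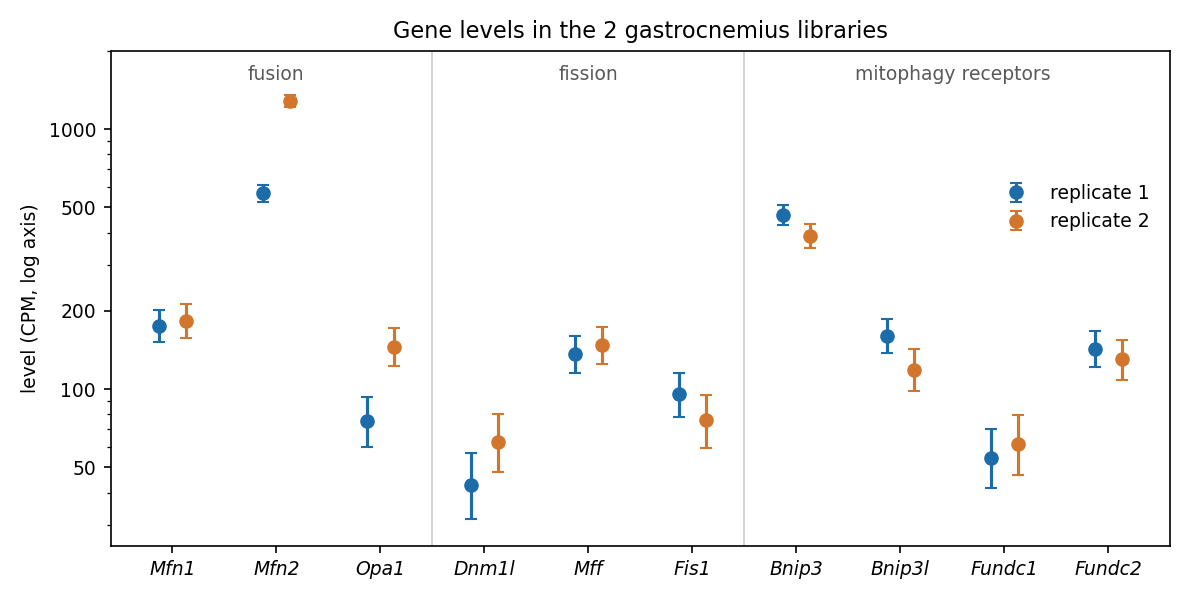
Level of each gene in CPM on a log axis, replicate 1 at left and replicate 2 at right of each gene, with exact Poisson 95% intervals that cover counting error only. The intervals of the libraries lie apart for Mfn2 (565 and 1281 CPM) and Opa1 (75.1 and 146 CPM).

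The fission genes were at lower levels than Mfn2, and none was called. Dnm1l, the GTPase that constricts mitochondria, held 48 reads in replicate 1 and 61 reads in replicate 2, 42.9 CPM and 62.5 CPM, the lowest mean of the 10 genes (52.7 ± 13.8, SD, n = 2). Its fold, replicate 1 over replicate 2, was 0.634 (95% interval 0.425 to 0.941), which did not pass after adjustment over all genes (adjusted p = 0.125, exact binomial test). Mff, an adaptor that recruits Dnm1l, was at 136 CPM in replicate 1 and 148 CPM in replicate 2 (152 and 144 reads), and Fis1, a tail-anchored outer membrane protein linked to fission, was at 95.7 CPM and 75.8 CPM (107 and 74 reads). Neither was called (adjusted p = 0.475 and 0.658). Summed, the 3 fission genes were at 275 CPM in replicate 1 and 286 CPM in replicate 2, against 816 CPM and 1610 CPM for the 3 fusion genes. Of the reads of these 6 genes, the fusion genes took 74.8% in replicate 1 (Wilson 95% interval 72.3 to 77.2) and 84.9% in replicate 2 (83.2 to 86.5). Mfn2 held 632 of the 912 fusion reads in replicate 1 and 1250 of 1571 in replicate 2.

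The mitophagy receptors were led by Bnip3, a receptor known to be induced by low oxygen and by fasting. It held 523 reads in replicate 1 and 379 reads in replicate 2, 468 CPM and 388 CPM (mean 428 ± 56.1, SD, n = 2), and was not called (fold 1.11, 95% interval 0.973 to 1.27, adjusted p = 0.373 in the exact test). Scaled by total reads it was called, with a log2 ratio of 0.27 (adjusted p = 0.04995 in the exact test). Its paralogue Bnip3l, known for the clearance of mitochondria from maturing red cells, was at 160 CPM in replicate 1 and 119 CPM in replicate 2 (179 and 116 reads, adjusted p = 0.274). Bnip3 made up 74.5% of the reads of the pair in replicate 1 and 76.6% in replicate 2, with overlapping Wilson intervals. Fundc2, a paralogue of the receptor Fundc1, was at 143 CPM in replicate 1 and 130 CPM in replicate 2 (160 and 127 reads). Fundc1 was lower, at 54.6 CPM and 61.5 CPM (61 and 60 reads). Fundc2 made up 72.4% of the reads of that pair in replicate 1 and 67.9% in replicate 2. With TMM scaling none of the 3 receptors was called, nor was Fundc2, and the 4 genes together were at 826 CPM in replicate 1 and 699 CPM in replicate 2.

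In order of mean level, Mfn2 and Bnip3 stood first and second, and the value of each in its lower library exceeded that of the next gene in its higher one. Mfn1 followed at 179 ± 5.75 CPM. Mff (142 ± 8.21 CPM), Bnip3l (140 ± 29.2 CPM), Fundc2 (137 ± 9.17 CPM) and Opa1 (110 ± 49.8 CPM) came next, and their ranges over the libraries overlapped from neighbour to neighbour. Fis1 (85.8 ± 14.1 CPM) lay within the range of Opa1. Fundc1 (58.0 ± 4.90 CPM) and Dnm1l closed the order with overlapping ranges. Each mean and SD is over the 2 libraries.

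On mm10 the other genes lie at chr3:32529465-32579239 (Mfn1), chr16:29579334-29654884 (Opa1), chr16:16312230-16358959 (Dnm1l), chr1:82724890-82752394 (Mff), chr5:136953275-136966234 (Fis1), chr7:138890836-138909519 (Bnip3), chr14:66985239-67008877 (Bnip3l), chrX:17556564-17572325 (Fundc1) and chrX:75382399-75396459 (Fundc2). Annotated near-copies could have drawn reads from 2 of the genes. Bnip3l-ps shared 88.4% of its 21-base words with Bnip3l and held 2 reads in replicate 1 and 1 read in replicate 2. Gm16439 and Gm6532 shared 82.7% and 74.8% of theirs with Bnip3 and held none in either library. Reads that the authors' counting assigned to the genes instead of the copies cannot be seen in the tables.

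Both called genes have long transcripts. The most-read annotated transcript was 4341 nt for Mfn2 and 6230 nt for Opa1, and in the band over 4000 nt, which also holds Mfn1, 0.831% of all genes tested were called with replicate 1 higher and 12.8% with replicate 2 higher. Mfn1, with 4562 nt, had a log2 ratio of -0.18, against -1.30 for Mfn2 and -1.07 for Opa1, beside the band's median of -0.31. These lengths are from the annotation and need not be those of the molecules read. Genes with no read matching an annotated transcript in full, among them Atp2a1, had no length and are in no band. The longest model of the most-read unannotated chain was 3110 nt for Mfn1, 6861 nt for Mfn2 and 6341 nt for Opa1. In the band up to 1000 nt, which holds Fis1, 13.5% were called with replicate 1 higher and 3.43% with replicate 2 higher.

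**Figure D2:**
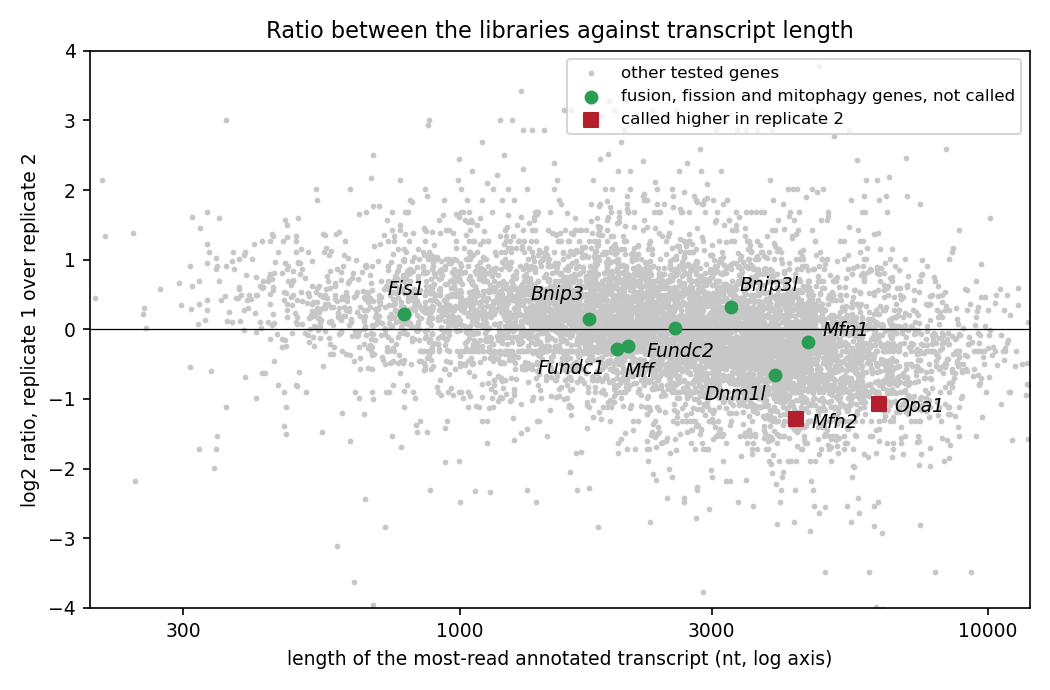
Log2 ratio, replicate 1 over replicate 2, against the length in nt of the most-read annotated transcript on a log axis, for the 10 genes. Other tested genes are in grey, of which 407 lie outside the axes or had no read matching an annotated transcript in full, and so no length. Mfn2 and Opa1, at -1.30 and -1.07, lie below the median of -0.31 of genes over 4000 nt, and Mfn1, at -0.18, lies above it.

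Opa1, Dnm1l and Mff had the highest shares of reads in unannotated exon combinations among the 10 genes. The authors' pipeline classed each transcript model as Known (in GENCODE), as NIC (by its definition, annotated splice sites in an unannotated combination), as NNC (with an unannotated splice site), as ISM (an incomplete match) or as Genomic. The deposited classes did not always keep to this: some chains classed NIC held a splice site absent from GENCODE M21, among them chains of Mfn2 and Opa1, and a Mfn2 chain with 21 reads in replicate 1 and 50 in replicate 2 carried both classes. Both classes are therefore pooled below as unannotated chains. Of reads classed Known, NIC or NNC, unannotated chains of introns took 74.0% for Mff in replicate 1 and 69.3% in replicate 2, 56.9% and 59.5% for Opa1, and 38.6% and 31.0% for Dnm1l. The share was 21.03% and 22.5% for Mfn2 and at most 7.87% for each of the other 6 genes in both libraries. Over all annotated endogenous genes it was 25.6% in replicate 1 and 31.2% in replicate 2. That figure is weighted by reads, so abundant genes shape it and it is not the share of a typical gene. Atp2a1, with 169580 reads in replicate 1 and 186789 in replicate 2, had no read classed Known. The share without Atp2a1 was not counted.

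**Figure D3:**
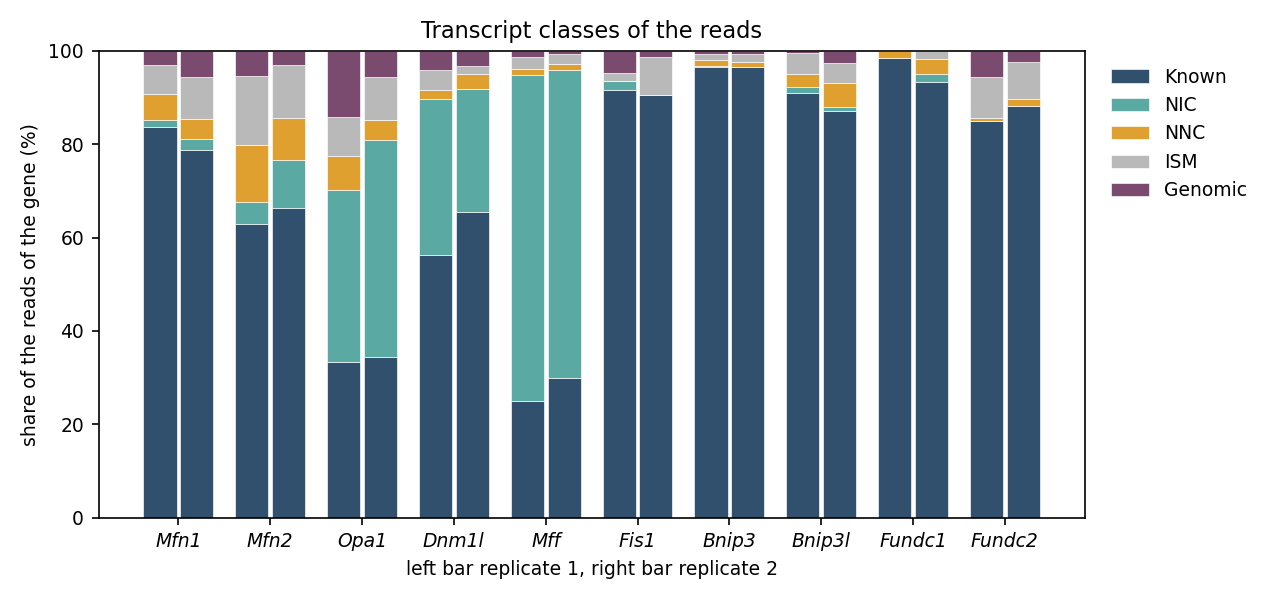
Share of the reads of each gene by transcript class, in percent, replicate 1 as the left bar and replicate 2 as the right bar. The split of NIC and NNC is the authors'. NIC models fill most of the Mff bars, 69.7% in replicate 1 and 66.0% in replicate 2, and Known models fill most of the Bnip3 bars, 96.6% in both.

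Mfn1, Fis1, Bnip3, Fundc1 and Fundc2 each gave nearly a single chain of introns among reads classed Known, NIC or NNC. Shares of chains and of first exons, here and below, are of these reads, and chains that differ only in their ends are pooled. Over all reads of the gene, the Known class held 83.7% for Mfn1 in replicate 1 and 78.8% in replicate 2. It held 85.0% and 88.2% for Fundc2, and more for the others. Mfn1-201 took 91.6% of reads in replicate 1 and 92.2% in replicate 2, Fis1-201 96.0% and 98.5%, Bnip3-201 98.4% and 98.6%, Fundc1-201 96.7% and 91.5%, and Fundc2-201 99.3% and 98.2%. Bnip3l had a second annotated transcript: Bnip3l-202 took 85.3% and 85.2%, and Bnip3l-201, which lacks a partly coding exon of 42 nt, 10.6% and 8.33%. Mfn2-201 took 78.6% in replicate 1 and 77.2% in replicate 2.

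Most Mfn2 reads kept the coding part as annotated. Chains with the 16 coding introns of Mfn2-201 held 476 of 504 reads in replicate 1 (94.4%) and 1019 of 1071 reads in replicate 2 (95.1%). These counts include Mfn2-201 itself, with 396 reads in replicate 1 and 827 in replicate 2. The share within the unannotated chains alone, with 106 and 241 reads, was not counted. The most-read of the unannotated chains, with 26 reads in replicate 1 and 68 in replicate 2, used a splice site 17 nt from the annotated one at the start of the noncoding exon 3. The next, with 21 and 50 reads, used one 3 nt from the annotated site at the noncoding exon before it. Most reads of the gene shared a first exon. The first exon of Mfn2-201 began 94.4% of reads in replicate 1 and 94.1% in replicate 2. The other genes likewise started almost wholly from a single first exon, with shares from 95.5% to 100%.

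Opa1 had no dominant transcript. An unannotated combination of 30 exons, with the 111-nt exon and without the 54-nt exon, was the most-read at 19 of 65 reads in replicate 1 (29.2%) and 35 of 121 reads in replicate 2 (28.9%). Opa1-206, which lacks both exons, took 18 reads in replicate 1 and 32 in replicate 2. An unannotated combination with both took 11 and 28 reads, and Opa1-201, with the 54-nt exon alone, took 9 and 17. All 4 combinations of the 2 exons were found in both libraries. Counted over every read spanning both exons, the 111-nt exon alone was in 31.3% of reads in replicate 1 and 30.3% in replicate 2, neither in 31.3% and 27.9%, both in 22.4% and 25.4%, and the 54-nt exon alone in 14.9% and 16.4%. The Opa1 protein is cut in its N-terminal part by the inner membrane peptidases Oma1 and Yme1l1, near the stretch these exons encode.

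The most-read Dnm1l transcript lacked all the variable exons. Dnm1l-201, without any of the 3, took 15 of 44 reads in replicate 1 (34.1%) and 29 of 58 in replicate 2 (50%), and Dnm1l-202, with the 39-nt exon, took 25% and 19.0%. An unannotated combination with the 78-nt exon took 13.6% in replicate 1 and 10.3% in replicate 2. A second, with the 78-nt and 33-nt exons, took 5 reads in replicate 1 (11.4%) and 1 read in replicate 2 (1.72%). Over reads spanning all 3, replicate 1 had none of them in 16 of 43 (37.2%) and replicate 2 in 36 of 58 (62.1%). The 33-nt exon was in 8 of 14 reads with the 78-nt exon in replicate 1, against 2 of 29 reads without it, and in replicate 2 in 1 of 7 with it and 4 of 51 without it. These counts are small and carry no test.

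Mff had 38 chains over both libraries, and none passed 24.0% of reads in either. The chain with the highest mean share was an unannotated combination of 10 exons, with the 75-nt and 159-nt exons, at 24.0% of reads in replicate 1 (35 reads) and 18.6% in replicate 2 (26 reads). Mff-212, which adds a noncoding exon of 172 nt, took 8.22% (12 reads) and 19.3% (27 reads), the most in replicate 2, and Mff-202, without the 75-nt exon, 14.4% and 7.86%. Seen by the coding exons alone, the 75-nt and 159-nt exons without the 33-nt exon were together in 45.5% of reads of replicate 1 and 49.6% of replicate 2. The 159-nt exon alone was in 27.3% and 24.4%. The 75-nt exon was rarely seen without the 159-nt exon: it was in 60.9% of reads with that exon in replicate 1 and 65.6% in replicate 2, against 1 of 12 and 2 of 11 reads without it.

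**Figure D4:**
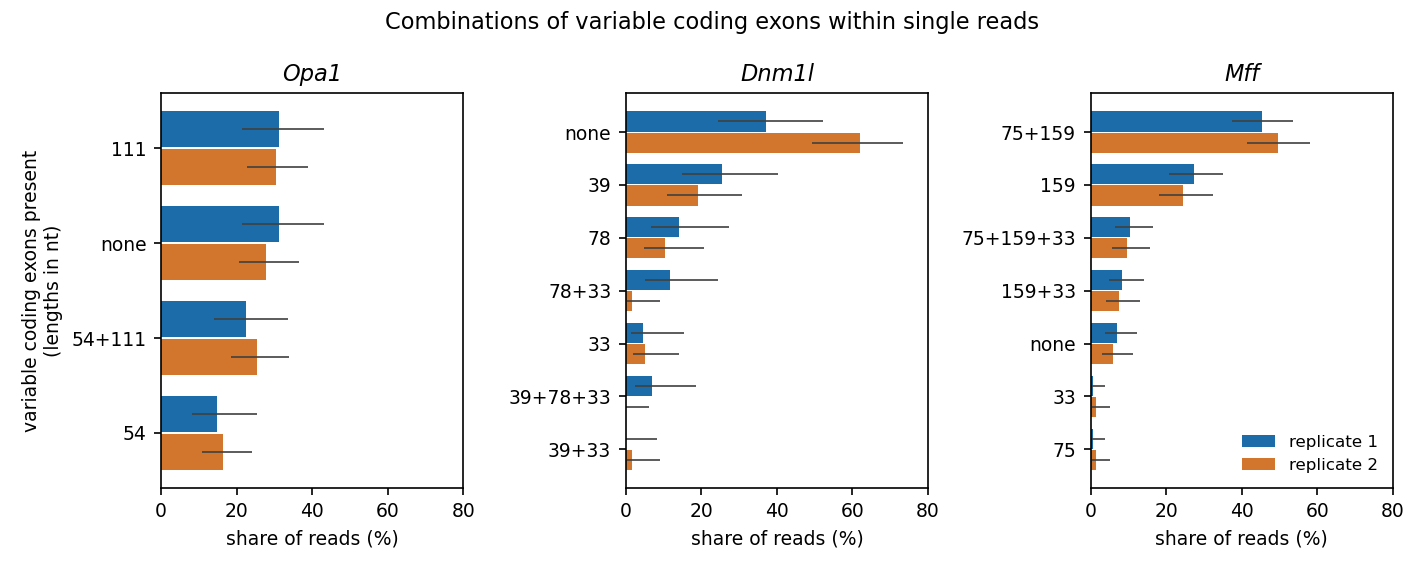
Share of reads, in percent with Wilson 95% intervals, that held each combination of the variable coding exons of Opa1, Dnm1l and Mff, named by their lengths in nt, replicate 1 above replicate 2. Opa1 reads spread over 4 combinations of 14.9% to 31.3%, and Dnm1l reads with none of the exons were 37.2% in replicate 1 and 62.1% in replicate 2.

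The leading transcript's share was tested for all 10 genes, and none was called between the libraries (Fisher's exact test, p adjusted by Benjamini-Hochberg across 3292 genes, of which 0.456% were called; all 10 had an adjusted p of 1, and none had an unadjusted p under 0.05). The count was 0 under each alternative run as well, though with Known models only 9 of the 10 could be tested, since Fundc2 then had a single chain and no share to compare. A p that misses the threshold does not show that shares were equal, and with 44 and 58 reads the Dnm1l shares of 34.1% and 50% carry Wilson 95% intervals of 21.9 to 48.9 in replicate 1 and 37.5 to 62.5 in replicate 2.

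Annotated cassette exons were counted among reads that span them, and 20 such exons of these genes had enough reads. Of these, 10 were used at 5% to 95% on average: 8 wholly coding ones, whose sequences are given above, the noncoding Mff exon and the partly coding Bnip3l exon. In Opa1 the 54-nt exon was in 25 of 67 spanning reads of replicate 1 (37.3%, Wilson 95% interval 26.7 to 49.3) and 51 of 122 of replicate 2 (41.8%, 33.4 to 50.7). The 111-nt exon was in 53.7% and 55.3%. In Mff the 75-nt exon was in 55.03% of spanning reads in replicate 1 and 58.0% in replicate 2, the 159-nt exon in 91.6% and 91.1%, the 33-nt exon in 21.3% and 18.9%, and the noncoding 172-nt exon in 34.0% and 37.4%. The 42-nt Bnip3l exon was in 89.2% and 90.1%. For each of these exons the Wilson intervals of the libraries overlapped.

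The Dnm1l exons were the least alike, though the Wilson intervals of the libraries overlapped for each of these as well. The 39-nt exon was in 34.1% of reads in replicate 1 and 20.7% in replicate 2, the 78-nt exon in 14 of 44 reads (31.8%, Wilson 95% interval 20.0 to 46.6) and 7 of 59 reads (11.9%, 5.87 to 22.5), and the 33-nt exon in 22.7% and 8.47%. The 78-nt exon had the only unadjusted p under 0.05 of the 20, at 0.0245, with an adjusted p of 1 (Fisher's exact test, adjusted by Benjamini-Hochberg across 5433 cassette exons, of which 0.331% were called). None of the 20 was called, under the main setting or under any of the alternatives run.

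**Figure D5:**
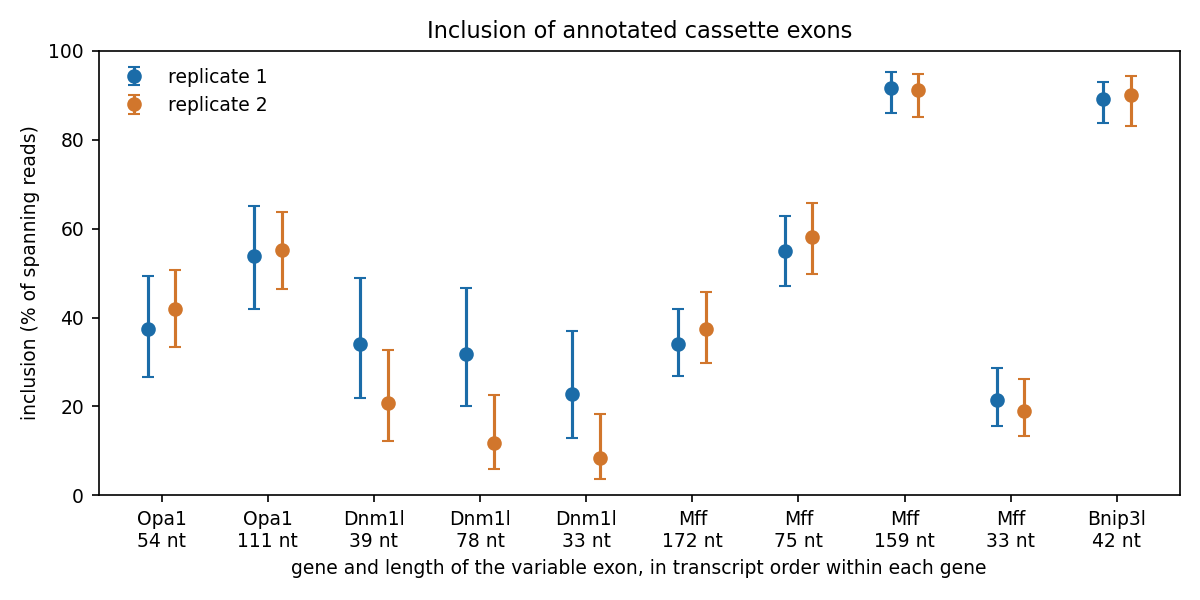
Inclusion of the 10 annotated cassette exons used at 5% to 95%, in percent of spanning reads with Wilson 95% intervals, replicate 1 left of replicate 2. The Dnm1l 78-nt exon is furthest apart, at 31.8% and 11.9%, and the Opa1 and Mff exons lie close together.

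The remaining exons were near constant. Over 95% inclusion held for 8 of them: exons of Mfn2 (83 and 109 nt), Dnm1l (47 nt), Mff (170 and 60 nt), Fis1 (133 nt), Fundc1 (129 nt) and Fundc2 (76 nt). A noncoding exon of Fis1 (187 nt) and one of Fundc1 (49 nt) were in no read. Zero of 100 reads in replicate 1 and of 67 in replicate 2 allow up to 3.00% and 4.48% for the Fis1 exon, and 4.92% and 5.08% for the Fundc1 exon. These limits, like the Poisson and Wilson intervals, cover counting error only.

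Other genes of the same processes were listed by role. Of 69 genes, 68 were found in the annotation and 63 had at least 10 reads. In 4 of them replicate 1 was called as the higher library, in 9 replicate 2 was, and 50 were not called, beside 4.61% and 7.06% of all genes. None was called once the scatter was added. The median log2 ratio of the 63 was -0.10, against -0.0031 over all genes.

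Among genes of fusion and inner membrane processing, 1 was called in each direction of 11 tested. Stoml2, a stomatin-like inner membrane protein, was at 147 CPM in replicate 1 and 90.2 CPM in replicate 2, and Afg3l2, a subunit of the m-AAA protease, at 131 CPM and 169 CPM. The most abundant of the group was Phb, a scaffold of the inner membrane, at 233 CPM and 224 CPM, not called. Of 12 fission genes tested, 3 were called, all higher in replicate 2: Akap1, an outer membrane anchor for protein kinase A, at 42.9 CPM in replicate 1 and 94.3 CPM in replicate 2, Dnm2, a dynamin, at 34.0 CPM and 66.6 CPM, and Mief2, a Dnm1l receptor, at 79.6 CPM and 116 CPM. Mtfr1l was the most abundant, at 285 CPM and 250 CPM.

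In the pathway that tags damaged mitochondria with ubiquitin, the kinase gene Pink1 was above all other genes of the lists. It was at 1522 CPM in replicate 1 and 1544 CPM in replicate 2 and was not called (adjusted p = 0.0648, exact test). Rhot1, which anchors mitochondria to motor proteins, was at 46.5 CPM and 93.3 CPM, and Usp15, a deubiquitinase, at 105 CPM and 166 CPM. Both were called higher in replicate 2, of 9 tested. Of 8 further receptors and adaptors, Sqstm1, the adaptor p62, was called higher in replicate 1, at 435 CPM against 263 CPM in replicate 2, and Bcl2l13, a receptor, higher in replicate 2, at 48.3 CPM in replicate 1 and 83.0 CPM in replicate 2.

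Of 9 autophagosome genes, Map1lc3a was called, higher in replicate 1 (165 CPM against 89.2 CPM in replicate 2), and Map1lc3b, another LC3 gene, was the most abundant at 422 CPM and 327 CPM. Of 6 cristae genes Apoo was called, higher in replicate 1 (71.6 CPM against 29.7 CPM), and Chchd3 was the most abundant at 311 CPM and 283 CPM. Of 8 genes of mitochondrial mass and biogenesis, Cs, which encodes citrate synthase, and Esrra, a nuclear receptor that drives mitochondrial genes, were called higher in replicate 2. Cs was at 444 CPM in replicate 1 and 556 CPM in replicate 2, and Esrra at 172 CPM and 259 CPM. Over all these lists, the most-read annotated transcripts of the genes called higher in replicate 1 were from 784 nt (Apoo) to 2037 nt (Sqstm1) long. Those of the genes called higher in replicate 2 were from 2242 nt (Esrra) to 6925 nt (Bcl2l13). The part of length in these calls was not tested.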

How the data were processed

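The 2 libraries were deposited as counts of reads per transcript model. Per the labels the reads were long reads on assembly mm10, and TALON added models to GENCODE M21 separately per library, per the deposited annotations. The aligner was not given in the sources used here, nor was its version. Both the genes and gene lists were chosen with earlier results of these data known.

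The deposited counts of all models of an annotated gene were summed. A model was matched to the other library where strand, chromosome and all introns were the same. Gene counts were compared by a 2-sided exact binomial test on TMM effective sizes (edgeR 4.0.16, R 4.3.3; factors 1.04 and 0.961), with Benjamini-Hochberg adjustment over genes of at least 10 reads and a threshold of 0.05. It takes the libraries as given, so p-values know counting error only. Leading chains and cassette exons (at least 20 reads in each library) were compared by Fisher's exact test. An exon was included where both boundaries matched and skipped where no exon of the model overlapped it. Alternatives were DESeq2 1.42.0 size factors, total reads, no filter, an edgeR exact test with the common dispersion of 0.0622, other transcript classes and other minimums. The rule for named genes was all 10 genes, and of the other lists each gene called and the most abundant one. The procedures were tested on counts simulated without scatter between libraries, so those runs do not show how often unchanged genes are called in these data. Analyses used Python 3.11.15, numpy 2.4.6, pandas 2.3.3 and scipy 1.17.1. Reads of annotated endogenous genes were 1117891 and 975696, and the 3 reads a count of 0 allows correspond to 2.68 and 3.07 CPM.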

Additional observations from a re-analysis of the deposited data

Results flagged for a closer look

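Reads outside the annotated genes lay next to Bnip3 on chromosome 7 (mm10) in both libraries, above the 3 reads a count of 0 allows. On the strand of Bnip3, single-exon models at chr7:138888961-138889183 in replicate 1, with 11 reads, and at chr7:138888962-138889271 in replicate 2, with 4 reads, lay 1653 nt and 1565 nt past the annotated end of the gene, 15 reads in all. Multi-exon models assigned to Bnip3 reached the same end: 4 unannotated chains in replicate 1, with 2, 2, 1 and 1 reads, ended at base 138888961, and 1 in replicate 2, with 1 read, ended at base 138888962, so that the single-exon models lie within the span of Bnip3 reads. On the opposite strand, a model at chr7:138883057-138885981 held 6 reads in replicate 1 and 11 in replicate 2, 17 reads in all. Neither single-exon locus entered the counts of Bnip3, and what they are was not tested.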

How the results depend on the processing

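Mfn2 and Opa1 were higher in replicate 2 under all 6 alternatives, with log2 ratios of replicate 1 over replicate 2 from -1.39 to -1.18 and from -1.20 to -0.95, but with the scatter between the libraries added 0 of the 10 genes and 24 of all genes (8 higher in replicate 1, 16 higher in replicate 2) were called, in place of 2 and 980. Scaling by total reads moved every log2 ratio by 0.11, called 586 genes higher in replicate 1 and 452 higher in replicate 2 in place of 387 and 593, and called Bnip3 higher in replicate 1 (log2 0.27, adjusted p = 0.04995, exact binomial test). The sign of the Fundc2 log2 ratio, 0.022, turned to -0.036 with Known, NIC and NNC models and to -0.044 with Known models only; the cause was not tested. With Known models only, 4 leading transcripts were called in place of 15, among 1690 genes in place of 3292. The mean levels became the value of the other library when 1 was left out, from 42.9 to 1281 CPM over the 10 genes. Depth limits the exon results of Dnm1l, with 44 spanning reads in replicate 1.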
